A study of Mus musculus with 6 samples.

Results

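Interferon-stimulated genes were examined in livers of Retnla-Tg mice, which carry a transgene for Retnla, and of Retnla-non-Tg mice, which do not. All animals were male, of C57BL6/J background and 3 months old, and all had eaten a high-fat diet with 21% fat and 0.15% cholesterol for 4 weeks, from 8 weeks of age. Each group held 3 mice (Tg 5, 6 and 7, and non-Tg 1, 2 and 3), with 1 Affymetrix mouse expression array per mouse. The labels do not give the promoter or the cell type that drives the transgene, nor whether the Tg mice come from 1 founder line. The set was fixed by name as 37 genes, of which 28 are best known as targets of type I interferon and 9 as targets of interferon gamma. A gene took its value from a probe set annotated with that 1 symbol, and where several existed the one with the highest mean over the 6 arrays stood for it. By this rule 35 of the 37 genes, among 18193 genes in all, had a value, while Isg15 and Ifi44 were not analysed here. Of the 35, 33 lay above the filter on dim signals (a mean log2 signal of 5.63) and entered the test with 12705 genes in all. These were 24 type I-induced and 9 gamma-induced genes.

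Interferons are secreted proteins that warn cells of viruses and other microbes. Type I interferons bind the receptor IFNAR and activate a complex that includes STAT2 and IRF9, which binds interferon-stimulated response elements (ISREs) in the promoters of antiviral genes. Interferon gamma, made mostly by T and NK cells, binds IFNGR, acts through gamma-activated sites (GAS) in promoters, and induces IRF1, guanylate-binding proteins, immunity-related GTPases and antigen presentation. In liver both hepatocytes and the resident macrophages, the Kupffer cells, respond to interferons. The product of Retnla, RELM alpha, is secreted and best known from alternatively activated macrophages, and the comparison asks what its transgene changes in liver.

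The transgene was visible in every Tg liver. Retnla had log2 signals of 16.04, 15.91 and 16.04 in Tg livers 5, 6 and 7, against 6.03, 7.41 and 6.48 in non-Tg livers 1, 2 and 3, a difference of 9.36 ± 0.28 (SE; limma adjusted p = 4.07e-07). Signals are on the log2 scale throughout, were scaled to a common mean by the authors, and are listed for Tg mice 5, 6 and 7 and then non-Tg mice 1, 2 and 3. Nnt, a mitochondrial transhydrogenase named after its values were seen, was the other gene past the threshold, with 13.01, 12.71 and 12.70 in Tg livers, against 11.30, 11.37 and 11.44 in non-Tg livers (limma adjusted p = 0.00197). The C57BL/6J strain is known for a deletion within Nnt, and whether both groups share the labelled background was not tested. The labelled tissue showed in its main hepatocyte marker: albumin (Alb) stood between 16.20 and 16.33 in Tg livers and between 16.24 and 16.39 in non-Tg livers. The arrays fell into a pair of sets by the signal of bioC, a spiked-in bacterial control, with a lower bioC signal in Tg 5, Tg 6 and non-Tg 1 and a higher one in Tg 7, non-Tg 2 and non-Tg 3. A difference within a set therefore rests on a single mouse of 1 genotype, non-Tg 1 or Tg 7. For a gene whose groups do not overlap, its sign within each set is fixed in advance.

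No interferon-stimulated gene changed between the genotypes at the threshold of the test. Of the 33 tested members, 0 rose and 0 fell in Tg livers at a limma adjusted p under 0.05, where 0.0157% of all genes rose and 0% fell. At an unadjusted limma p under 0.05, 1 member was higher and 2 were lower in Tg livers, where 2.93% of all genes were higher and 3.12% lower. That count of 3 became 0 without Tg 5, 0 without non-Tg 1 and 1 without non-Tg 2. At these settings 6.23%, 8% and 3.69% of all genes passed in either direction, against 6.05% with all mice. The groups did not overlap for 4 members, 2 of them higher and 2 lower in Tg livers, where 6.04% of all genes lay wholly higher and 5.64% wholly lower. Without regard to direction these were 12.1% of members, against 11.7% of all genes. With fewer mice overlap is less frequent, and the 4 became 7 without Tg 5, 12 without Tg 6, 9 without Tg 7 and 7 without non-Tg 2 or non-Tg 3. The share over all genes was not computed with a mouse left out, so these counts cannot be set against the 11.7%. Counted by sign, 19 members stood higher and 14 lower, where 52.1% of all genes were higher and 47.9% lower. With arrays centred on their medians the split turned to 14 higher and 19 lower, while the share of all genes higher was 40.4%. The median log2 difference over the 33 members (Tg minus non-Tg) was 0.05, against 0.01 over all genes, and the median size of the difference, sign aside, was 0.10 against 0.18.

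**Figure D1:**
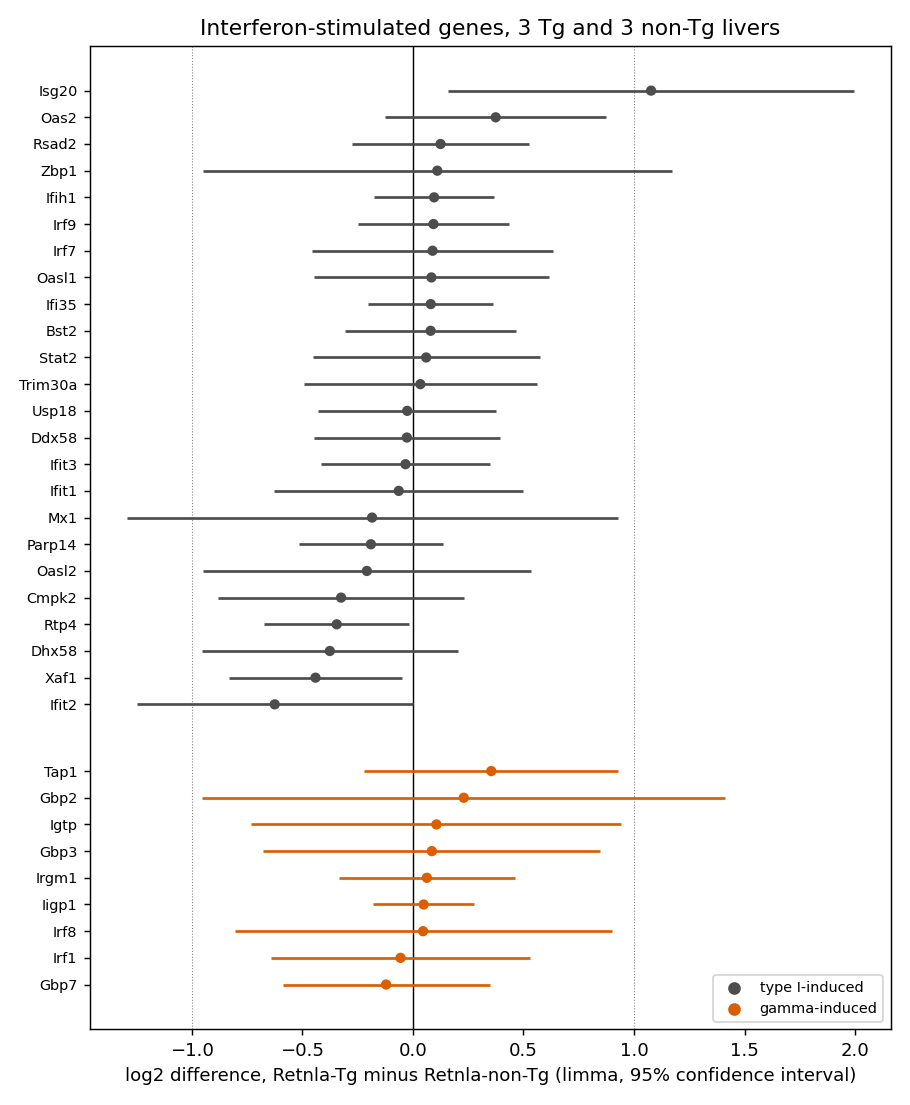
Log2 difference (Tg minus non-Tg, x axis) of each tested member with its limma 95% confidence interval, type I-induced genes above and gamma-induced genes below; dotted lines mark a 2-fold difference. The intervals of 28 of the 33 members lie wholly between the dotted lines, and that of Isg20 reaches furthest, to 2.00.

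The precision differed between members. For 28 of the 33 the 95% confidence interval of the limma fit lay wholly inside a 2-fold difference in either direction. The same held for 8607 of the 12705 genes tested in all. The other 5 members were Isg20, Ifit2, Mx1, Zbp1 and Gbp2, for which a 2-fold difference in at least 1 direction lay inside the interval. Each of these intervals covers a single gene and is not adjusted for the number of genes. The fit also moderates each gene's variance toward that of genes with a similar signal. This narrows the interval of a gene that varies more than those, such as Igtp, with an SD of 0.95 among Tg mice. For such genes the count of 28 rests partly on variance borrowed from other genes.

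The type I-induced and the gamma-induced genes gave similar medians and differed in how the mice varied. Over the 24 type I-induced genes the median log2 difference was 0.00, with 12 higher and 12 lower in Tg livers. Over the 9 gamma-induced genes it was 0.06, with 7 higher and 2 lower, and the groups overlapped for all 9. Median centring made this -0.01, with 4 higher and 5 lower. Without Tg 6 the medians became -0.15 and -0.24, and without Tg 7 they became 0.09 and 0.44, so the sign of either median rests on single Tg mice. Within the lower bioC set the medians were 0.16 for type I-induced and 0.34 for gamma-induced genes, and within the higher set -0.26 and -0.43. Tg 6 belongs to the lower set and Tg 7 is the only Tg mouse of the higher set. The bioC sets and these single mice therefore cannot be told apart here. With the sets as a block they were -0.07 and -0.05.

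Tg 6 and Tg 7 stood at opposite ends of most gamma-induced genes. The mean over the 9 genes of each signal's distance from that gene's mean was -0.06, 0.71 and -0.52 in the Tg livers, against 0.02, -0.06 and -0.09 in the non-Tg livers. The non-Tg livers thus lay close together and between the extremes of the Tg livers. Tg 6 had the highest signal of the 6 mice for 8 of the 9 genes and Tg 7 the lowest for 6, while over all genes Tg 6 was highest for 16.6% and Tg 7 lowest for 16.7%. For the 24 type I-induced genes the same means were 0.02, 0.14 and -0.20 in the Tg livers, against -0.04, 0.03 and 0.04 in the non-Tg livers. Here Tg 6 was highest for 8 genes and Tg 7 lowest for 11, a smaller spread in the same order. The gamma-induced mean minus the type I-induced mean was -0.09, 0.56 and -0.32 in the Tg livers, against 0.06, -0.09 and -0.13 in the non-Tg livers. Averaged by group this was 0.05 ± 0.46 (SD, n = 3) among Tg mice and -0.05 ± 0.10 (SD, n = 3) among non-Tg mice, so the means lay closer than the spread of the Tg mice.

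**Figure D2:**
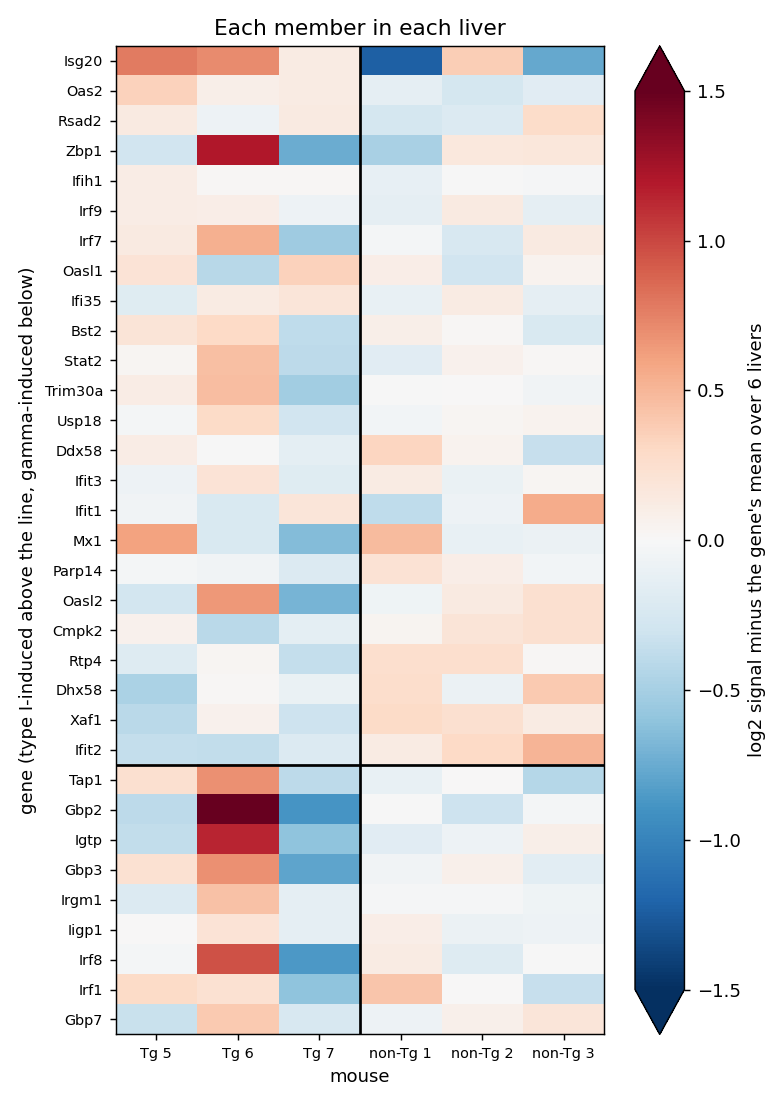
Log2 signal of each tested member (rows, in the order of the plot of differences) in each liver (columns), as its distance from the gene's mean over the 6 livers; red is higher, blue lower, and colours saturate at 1.5. Tg 6 is red and Tg 7 blue for most gamma-induced genes, while the 3 non-Tg columns stay pale outside Isg20, Ifit1, Ifit2 and a few others.

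The spread differed from gene to gene, among the GTPases and beyond them. Guanylate-binding proteins (Gbp) and immunity-related GTPases (Igtp, Irgm1, Iigp1) attack the vacuoles in which microbes hide inside cells. Gbp2 had signals of 8.05, 10.06 and 7.55 in Tg livers, against 8.43, 8.12 and 8.41 in non-Tg livers. Its SD was 1.33 among Tg mice and 0.17 among non-Tg mice (n = 3 each), and its log2 difference was 0.23 ± 0.53 (SE; limma adjusted p = 0.950). All non-Tg values lay inside the range of the Tg values. Igtp stood at 10.40, 11.91 and 10.16 in Tg livers, against 10.59, 10.69 and 10.86 in non-Tg livers, a difference of 0.11 ± 0.37 (SE; limma adjusted p = 0.971). Gbp3 stood at 8.42, 8.89 and 7.41 in Tg livers, against 8.15, 8.28 and 8.04 in non-Tg livers. Irgm1, at 10.20, 10.85 and 10.27 in Tg livers, was nearly constant in non-Tg livers at 10.40, 10.39 and 10.35. In all 4 genes Tg 6 lay above every other mouse. Tg 5 and Tg 7 lay below all non-Tg mice in Gbp2, Igtp and Irgm1, while in Gbp3 only Tg 7 did and Tg 5 lay above them. Gbp7 had 8.99, 9.70 and 9.07 in Tg livers, against 9.24, 9.39 and 9.49 in non-Tg livers. Iigp1 varied least of the 6 GTPases, with 14.38, 14.58 and 14.24 in Tg livers, against 14.47, 14.28 and 14.30 in non-Tg livers, and its interval of -0.18 to 0.28 was among the narrowest. Over the 6 GTPases the log2 differences ran from -0.12 to 0.23, Tg 6 was highest in all 6, and the Tg SD exceeded the non-Tg SD in all 6. Gbp and Irgm genes belong to families of similar sequences, whose transcripts one probe set may share.

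Promoter windows were at hand for all of these GTPases but Iigp1, and each held letters of the ISRE type. Sequences are RefSeq's, of the mouse build GRCm38.p6, and each window ran from 250 bases before to 50 bases after an annotated start; 28 of the 37 genes had one. The pattern searched on both strands for an ISRE-type match was GAAA, any 2 bases, and GAAA again, and for a GAS-type match it was TTCNNNGAA. Matches of the 2 patterns overlapped each other in 1 member, Bst2, and matches of the same pattern can also overlap. An ISRE-type match was found for 15 of 28 members (53.6%), against 3.99% of 27025 genes, and a GAS-type match for 8 of 28 (28.6%), against 9.55%. By class, ISRE-type letters were found in 5 of 8 gamma-induced and 10 of 20 type I-induced genes, and GAS-type letters in 4 of 8 and 4 of 20. The stretches printed here lie upstream of the start, 5′ to 3′ on the gene's strand, with ISRE-type matches on either strand in capitals. They are shown for the 5 GTPases with a window, to let their ISRE-type letters be compared. Gbp7 and Igtp also held GAS-type letters, upstream of the printed stretch in Gbp7 and in lower case within it in Igtp.
Gbp2, chr3:142620584-142620633, plus strand: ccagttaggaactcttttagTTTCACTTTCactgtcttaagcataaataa
Gbp3, chr3:142559979-142560034, plus strand: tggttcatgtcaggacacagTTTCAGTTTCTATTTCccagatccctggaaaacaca
Gbp7, chr3:142530263-142530312, plus strand: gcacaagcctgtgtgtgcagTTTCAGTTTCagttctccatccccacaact
Igtp, chr11:58199502-58199551, plus strand: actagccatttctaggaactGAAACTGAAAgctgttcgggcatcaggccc
Irgm1, chr11:48871421-48871470, minus strand: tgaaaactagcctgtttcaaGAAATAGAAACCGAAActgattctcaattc
In Gbp3 and Irgm1 a pair of matches overlaps, and in Irgm1 they end 14 bases before the start site. Such a match describes the letters only and is not a measured binding site.

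The transcription factors of the set overlapped between genotypes in all 5 cases. Irf1, the factor that interferon gamma induces directly and that switches on many GTPases, had 10.66, 10.60 and 9.78 in Tg livers, against 10.79, 10.39 and 10.03 in non-Tg livers. Its log2 difference was -0.06 ± 0.26 (SE; limma adjusted p = 0.976), and Irf1 was the gamma-induced gene in which Tg 6 was not highest. Irf8, a factor of macrophages and dendritic cells, spread more widely: 8.67, 9.65 and 7.84 in Tg livers, against 8.83, 8.51 and 8.69 in non-Tg livers, a difference of 0.05 ± 0.38 (SE; limma adjusted p = 0.988). Its second probe set gave 0.31. Irf7, which drives the amplification of type I interferon, had 10.38, 10.79 and 9.73 in Tg livers, against 10.23, 10.01 and 10.40 in non-Tg livers. Among Tg mice Irf8 and Irf7 followed the order Tg 6, Tg 5, Tg 7, as did Gbp2, Gbp3, Igtp and Iigp1. Irf1 shared only its low end, Tg 7, and in Gbp7 and Irgm1 Tg 5 was lowest. Stat2 and Irf9, partners in the complex that type I interferon activates, behaved differently from each other. Stat2 had 8.76, 9.18 and 8.34 in Tg livers, against 8.56, 8.80 and 8.75 in non-Tg livers, and Irf9 had 9.68, 9.66 and 9.49 in Tg livers, against 9.43, 9.70 and 9.43 in non-Tg livers. Stat2 had Tg 6 highest and Tg 7 lowest, whereas Irf9 was highest in non-Tg 2. Log2 differences were 0.06 for Stat2, 0.09 for Irf9 and 0.09 for Irf7, none past the threshold; median centring made that of Stat2 -0.01 and that of Irf8 -0.03. The upstream stretches of Irf1 and Irf8 hold GAS-type letters, capitalised here.
Irf1, chr11:53769904-53769952, plus strand: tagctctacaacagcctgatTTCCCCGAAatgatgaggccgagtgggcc
Irf8, chr8:120736167-120736233, plus strand: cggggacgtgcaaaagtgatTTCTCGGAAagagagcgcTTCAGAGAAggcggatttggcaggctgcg
No ISRE-type letters were in the windows of either gene.

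Tap1, which pumps peptides into the endoplasmic reticulum for MHC class I, had the highest difference of the gamma-induced class. Its signals were 9.87, 10.32 and 9.24 in Tg livers, against 9.52, 9.64 and 9.21 in non-Tg livers. The difference was 0.35 ± 0.26 (SE; limma adjusted p = 0.838), and Tg 7 lay among the non-Tg values. Within the bioC sets it was 0.58 and -0.19.

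**Figure D3:**
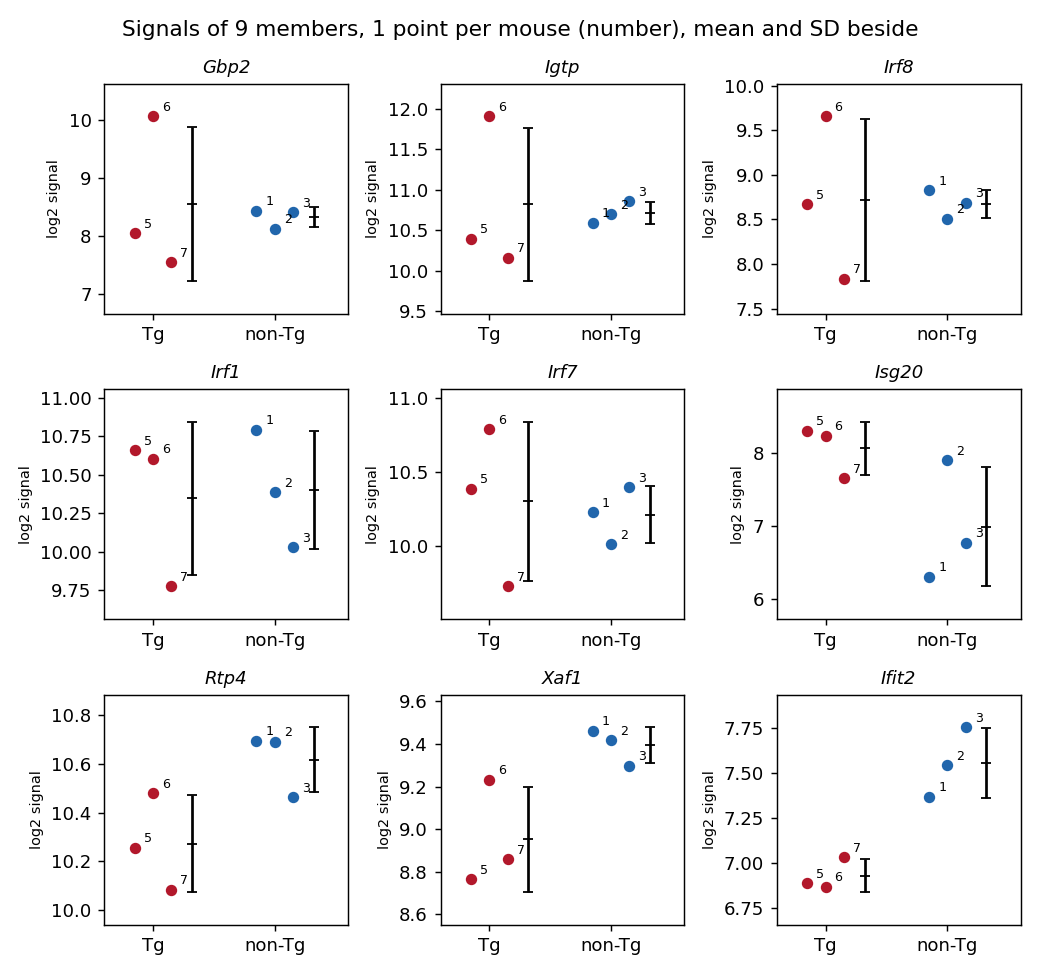
Log2 signals of 9 members (panels; y axes differ and do not start at 0), 1 point per mouse with its number, and group mean with SD beside the points. Gbp2, Igtp and Irf8 show Tg 6 above and Tg 7 below all non-Tg mice, whereas Xaf1 and Ifit2 show all Tg points below all non-Tg points.

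Among type I-induced genes the 3 past an unadjusted p of 0.05 did not move together. Isg20, an RNA exonuclease, had 8.31, 8.24 and 7.65 in Tg livers, against 6.30, 7.90 and 6.77 in non-Tg livers. The difference was 1.08 ± 0.41 (SE; limma adjusted p = 0.787). Tg 7 lay below non-Tg 2, so the groups overlapped, and the difference was 1.97 within the lower and 0.32 within the higher bioC set. Xaf1, a partner of the apoptosis inhibitor XIAP, had 8.77, 9.23 and 8.86 in Tg livers, against 9.46, 9.42 and 9.30 in non-Tg livers, a difference of -0.44 ± 0.18 (SE; limma adjusted p = 0.807). All Tg values lay below all non-Tg values on this probe set, but a second one gave 0.86 ± 0.58 (SE), and the mean of both probe sets gave 0.21. Rtp4, a chaperone of G protein-coupled receptors, had 10.26, 10.48 and 10.08 in Tg livers, against 10.70, 10.69 and 10.46 in non-Tg livers, a difference of -0.34 ± 0.15 (SE; limma adjusted p = 0.807). Tg 6 lay just above non-Tg 3, and a second probe set gave 0.09, with -0.13 for the mean of both. Within the bioC sets the differences were -0.46 and -0.50 for Xaf1 and -0.33 and -0.49 for Rtp4, each with a single mouse of 1 genotype.

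IFIT proteins bind foreign RNA in the cytoplasm, and 0 of the 3 tested members of the family passed the threshold. Ifit2, with the lowest difference of the 33 members, had 6.89, 6.87 and 7.03 in Tg livers, against 7.37, 7.54 and 7.75 in non-Tg livers. All Tg values lay below all non-Tg values, with a difference of -0.62 ± 0.28 (SE; limma adjusted p = 0.807) and an exact permutation p of 0.1, the smallest that 3 mice against 3 allow. Within the bioC sets Ifit2 differed by -0.49 and -0.61. Its relatives did not share this: Ifit1 had 8.72, 8.54 and 8.95 in Tg livers, against 8.39, 8.70 and 9.32 in non-Tg livers, and Ifit3 had 9.05, 9.34 and 8.95 in Tg livers, against 9.25, 9.03 and 9.16 in non-Tg livers. Their differences were -0.06 for Ifit1 and -0.03 for Ifit3, with overlapping groups, and their signs turned to 0.09 for Ifit1 with the bioC block and 0.05 for Ifit3 without Tg 7. Ifit1 and Ifit3 hold a pair of ISRE-type matches each, in capitals, and are shown to set a textbook type I promoter beside those of the GTPases.
Ifit1, chr19:34640765-34640833, plus strand: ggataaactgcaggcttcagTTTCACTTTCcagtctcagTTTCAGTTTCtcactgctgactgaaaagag
Ifit3, chr19:34583353-34583436, plus strand: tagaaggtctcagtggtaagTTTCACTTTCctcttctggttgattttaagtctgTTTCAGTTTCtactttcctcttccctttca
The TTTCAGTTTC letters of Ifit1 and Ifit3 also stand in Gbp3 and Gbp7, and on the other strand in Igtp, printed there as GAAACTGAAA. Of the stretches printed here, TTTCACTTTC stands in Ifit1, Ifit3 and Gbp2.

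The 2'-5' oligoadenylate synthetase family senses double-stranded RNA. Oas2 had 8.12, 7.87 and 7.90 in Tg livers, against 7.65, 7.51 and 7.61 in non-Tg livers, and every Tg liver lay above every non-Tg liver. The difference was 0.37 ± 0.22 (SE; limma adjusted p = 0.824; exact permutation p = 0.1), and it was 0.35 and 0.34 within the bioC sets. Oasl1 differed by 0.08 and Oasl2 by -0.21. Oasl2 had the order Tg 6, Tg 5, Tg 7 among Tg mice. Its signals were 7.74, 8.66 and 7.31 in Tg livers, against 7.94, 8.14 and 8.25 in non-Tg livers. Oasl1 ran the other way among Tg mice, at 8.84, 8.21 and 8.98. Oas3 lay below the filter, at 5.94, 5.45 and 5.14 in Tg livers, against 4.38, 6.53 and 5.90 in non-Tg livers, and without a filter its limma adjusted p was 0.989.

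The sensors of viral nucleic acid gave differences between -0.38 and 0.11. Ifih1, the RNA sensor MDA5, was the steadiest of them, with 10.55, 10.45 and 10.45 in Tg livers, against 10.32, 10.43 and 10.42 in non-Tg livers. Its groups did not overlap, but the difference was only 0.10 ± 0.12 (SE; limma adjusted p = 0.890; exact permutation p = 0.1). Ddx58, the RNA sensor RIG-I, had 9.87, 9.74 and 9.60 in Tg livers, against 10.07, 9.81 and 9.41 in non-Tg livers. Dhx58, their relative LGP2, differed by -0.38 on the probe set that stood for it, while another kept one gave 0.85 and the mean of the kept probe sets 0.24. Zbp1, a sensor of Z-form nucleic acid, spread as widely as the GTPases: 7.14, 8.64 and 6.69 in Tg livers, against 6.95, 7.59 and 7.60 in non-Tg livers.

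The remaining tested members differed by -0.32 to 0.13, and their groups overlapped. Bst2, the tetherin that holds budding virus on the cell surface, had 12.59, 12.69 and 12.02 in Tg livers, against 12.48, 12.41 and 12.17 in non-Tg livers. Ifi35 had 12.15, 12.45 and 12.51 in Tg livers, against 12.22, 12.46 and 12.20 in non-Tg livers. Both genes differed by 0.08, and their groups overlapped. Rsad2, the antiviral enzyme viperin, differed by 0.13 and its neighbour Cmpk2, a mitochondrial nucleotide kinase, by -0.32. Further kept probe sets of Rsad2 gave 0.68 ± 0.33 (SE) and 0.16, and the mean of its kept probe sets gave 0.32. Usp18, which strips ISG15 from proteins and damps IFNAR signalling, had 9.27, 9.59 and 9.02 in Tg livers, against 9.27, 9.34 and 9.35 in non-Tg livers, a difference of -0.03. Trim30a, a ubiquitin ligase of a multi-copy family, had 9.39, 9.74 and 8.75 in Tg livers, against 9.27, 9.29 and 9.22 in non-Tg livers. Usp18 and Trim30a thus repeated the pattern of tight non-Tg values with Tg 6 above and Tg 7 below them. Parp14, an ADP-ribosyltransferase, differed by -0.19. Mx1 and Mx2 are dynamin-like GTPases, and C57BL/6 mice carry a defective Mx1 allele. Mx1 differed by -0.18 ± 0.50 (SE), and Mx2 lay below the filter at 4.11, 3.87 and 5.00 in Tg livers, against 4.00, 4.56 and 3.94 in non-Tg livers.

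Members with several probe sets did not always agree in sign. Of 18 further kept probe sets, on 15 members, 11 had the sign of the one that stood for the gene. The exceptions were not limited to differences near 0, since Xaf1, Dhx58 and Rtp4 were among them.

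Upstream of the set, 0 ligands and 0 receptors passed the adjusted threshold. Of 8 ligand genes with a value (interferons, Il18, Il12a and Il12b) 3 were kept, 1 of them higher and 2 lower in Tg livers. Ifna2 was the only interferon among the 3. Il18, a cytokine that promotes the making of interferon gamma, had 10.40, 10.64 and 10.29 in Tg livers, against 10.66, 10.68 and 10.72 in non-Tg livers, without overlap (difference -0.25 ± 0.13 SE; limma adjusted p = 0.820). Ifna2 differed by -0.32 and Il12a by 0.08, with overlapping groups. Ifnb1, at 5.31, 3.35 and 3.17 in Tg livers, against 3.68, 3.40 and 6.36 in non-Tg livers, and Ifng, at 2.31, 5.38 and 6.61 in Tg livers, against 5.41, 5.11 and 5.20 in non-Tg livers, both lay below the filter. Of the 5 kept receptor genes, 2 stood higher and 3 lower, with 0 past the adjusted threshold; Ifnar1 differed by -0.13 and Ifngr1 by -0.15. Of 9 kept genes of receptor signalling 0 passed, and the phosphatase Ptpn6, which restrains cytokine receptors, had the smallest p (difference -0.50; limma adjusted p = 0.787). Of 12 kept genes that sense microbes upstream of interferon 0 passed, with a median of -0.01.

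A wider list of 34 kept interferon-induced genes gave a median of 0.03, with 21 higher, 13 lower and 0 past the adjusted threshold, and after median centring -0.04, with 15 higher and 19 lower. Ifi27l2a had the smallest p, with a difference of -0.68 ± 0.28 (SE; limma adjusted p = 0.807). Tg 6 was highest for 22 of the 34 genes. Cxcl10, a chemokine that attracts T cells, had 7.20, 8.83 and 7.30 in Tg livers, against 8.48, 7.97 and 8.15 in non-Tg livers. Its gamma-induced relative Cxcl9, named after its values were seen, had 9.44, 12.60 and 9.23 in Tg livers, against 10.60, 9.70 and 10.54 in non-Tg livers. In both chemokines Tg 6 was highest and the other Tg mice lay below all non-Tg mice.

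Antigen presentation genes showed the same mouse on top. All 11 kept genes of MHC class I and the immunoproteasome stood higher in Tg livers (10 of 11 after median centring), with a median of 0.14 and 0 past the adjusted threshold, and Tg 6 was highest for 10. Psmb9, an immunoproteasome subunit, had 10.25, 10.95 and 10.12 in Tg livers, against 10.02, 9.57 and 10.07 in non-Tg livers, without overlap (difference 0.56 ± 0.23 SE; limma adjusted p = 0.807). Psmb8, its partner subunit, had 10.46, 11.22 and 10.04 in Tg livers, against 10.17, 10.23 and 10.30 in non-Tg livers. Within the bioC sets the class I median was 0.19 and -0.06. The 5 kept MHC class II genes stood higher by a median of 0.71, again with 0 past the threshold, but by 1.04 within the lower and -0.45 within the higher bioC set, and by 0.37 with the sets as a block. Cd74, the invariant chain, had 12.39, 14.12 and 10.95 in Tg livers, against 12.12, 10.52 and 11.90 in non-Tg livers. Tg 6 was highest for all 5, while Tg 7 and non-Tg 2 were the lowest.

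**Figure D4:**
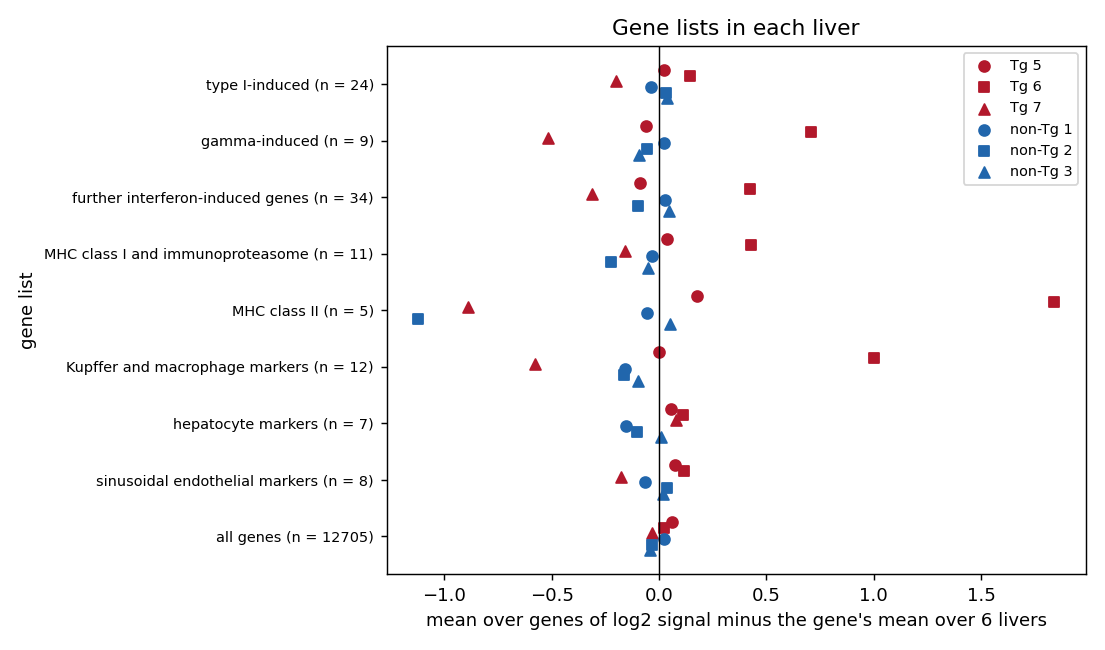
Mean over the genes of a list of each signal's distance from the gene's mean over the 6 livers (x axis, log2), for each liver; red is Tg, blue non-Tg, and n is the number of genes. Tg 6 stands at 0.71 for gamma-induced genes, 1.84 for MHC class II and 1.00 for macrophage markers, and all 6 livers lie near 0 for all genes.

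Markers of macrophages moved with the gamma-induced genes from mouse to mouse. All 12 Kupffer cell and macrophage markers were kept, and Tg 6 was highest for 12 of them and Tg 7 lowest for 9. Their mean distance from the gene means was 0.00, 1.00 and -0.58 in Tg livers, against -0.16, -0.17 and -0.10 in non-Tg livers, which is the order Tg 6, Tg 5, Tg 7 also seen for gamma-induced genes. Their summed signals, antilogged, ran from 22992 to 60397 in Tg livers and from 28902 to 32433 in non-Tg livers. Adgre1, which encodes F4/80, had 10.15, 11.23 and 9.86 in Tg livers, against 9.99, 9.78 and 9.88 in non-Tg livers, and Clec4f, a Kupffer cell lectin named after its values were seen, had 11.66, 12.39 and 11.33 in Tg livers, against 11.60, 11.67 and 11.76 in non-Tg livers. In whole liver, more cells of a type and more RNA per cell cannot be told apart, and the part of these cells in the gamma-induced signals was not tested. Of the T and NK cell markers 12 had a value and 6 were kept, with Cd3d, Cd3e, Cd4, Cd8b1, Gzmb and Ncr1 below the filter. Summed signals of the 6 ran from 983 to 1603 in Tg livers and from 779 to 1106 in non-Tg livers. Gzma, a granzyme of killer cells, had 6.99, 8.05 and 6.46 in Tg livers, against 6.29, 5.17 and 5.85 in non-Tg livers (difference 1.39 ± 0.53 SE, without overlap; limma adjusted p = 0.787). The 4 markers that stood higher were Gzma, Nkg7, Cd3g and Zap70, while Cd8a differed by -0.09 and Klrd1 by -0.15. Mean distances of the 6 were 0.62, 0.84 and -0.19 in Tg livers, against 0.05, -1.26 and -0.05 in non-Tg livers. Sinusoidal endothelial markers also had Tg 6 highest and Tg 7 lowest, with 0.07, 0.12 and -0.18 in Tg livers, against -0.06, 0.04 and 0.02 in non-Tg livers. Neither B cell nor dendritic cell markers followed the order Tg 6, Tg 5, Tg 7. The 5 kept B cell markers had 0.50, 0.00 and -0.30 in Tg livers, against -0.11, -0.07 and -0.03 in non-Tg livers. The 4 kept dendritic cell markers had -0.13, 0.51 and 0.06 in Tg livers, against 0.25, -0.47 and -0.21 in non-Tg livers. For the 7 hepatocyte markers Tg 7 was not lowest, with mean distances of 0.06, 0.11 and 0.08 in Tg livers, against -0.15, -0.10 and 0.01 in non-Tg livers. Among these, Tat, an enzyme of tyrosine breakdown, differed by 1.12 (limma adjusted p = 0.468) and the other markers by -0.04 to 0.03. Median distances of the 7 hepatocyte markers, less swayed by Tat, were 0.09, -0.03 and -0.01 in Tg livers, against -0.06, 0.02 and 0.01 in non-Tg livers.

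The spread between mice was thus larger among Tg than non-Tg livers for most members. The SD of the Tg mice exceeded that of the non-Tg mice in 25 of 33 members, among them all 9 gamma-induced genes and 16 of 24 type I-induced genes, against 55.8% of all genes. Median SDs over the gamma-induced genes were 0.54 among Tg mice and 0.13 among non-Tg mice, and over the type I-induced genes 0.24 and 0.16. Over all genes they were 0.25 and 0.22. This difference in spread was not tested.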

How the data were processed

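The authors deposited log2 signals, 1 for each probe set on each array. GCOS, software from the array's maker, is named per the submitters' processing notes, without a version or algorithm. The 2% trimmed mean of the antilogged signals was 500.0 on every array, so the arrays share a scale. Array precision is limited by the number of arrays, and no detection calls were used.

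Of 45101 probe sets, 64 controls were set aside, and 34945 of the rest had 1 gene symbol in GEO's platform annotation. Probe sets with a 6-array mean above the 40th percentile (5.63) were kept, and the highest-mean one stood for each of 12705 genes. Groups were compared with limma 3.58.1 (R 4.3.3; lmFit, eBayes with intensity trend, 2-sided, Benjamini-Hochberg over all 12705 genes, threshold 0.05), whose residual degrees of freedom were 4, or 9.61 once moderated. The labels call the arrays individual samples. The fit was tested on simulated data. Exact permutation tests used the 20 assignments of mice. Promoter windows came from RefSeq (GRCm38.p6). Lists were described by counts and medians, without set tests.

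All members were named; the wider lists name at most 4 genes by smallest p plus a few fixed ones, and a few further genes were named after their values were seen. Members and lists were chosen with earlier results of these data known. Alternatives changed the constant before the log, the filter, the normalization, the moderation, array weights, the probe set rule, a bioC block and each mouse left out.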

Additional observations from a re-analysis of the deposited data

How the results depend on the processing

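No paired analysis was possible because the groups share no replicate numbers. Of the 33 tested members, 0 passed an adjusted limma p of 0.05 under any of the 18 alternatives, where the smallest was 0.459. The count of genes called over all genes was 2 and became 4 with 16 added before the log, 6 with 64 added, 6 with a filter at the 20th percentile, 5 when arrays were centred on the median, 4 with robust moderation and 4 with the bioC sets as a block; the difference of Retnla ran from 9.05 to 9.74 and the count of genes called from 2 to 3 when each mouse was left out. The count of members without overlap was 4 and became 2 with a filter at the 70th percentile, which kept 25 members. It became 6 under quantile normalization, 6 under median centring and 3 with the mean of the kept probe sets. The share of all genes without overlap was not computed at these settings or with a mouse left out. Leaving out each mouse gave 0 to 3 members at an unadjusted limma p under 0.05, where 3.69% to 9.39% of all genes passed. It also gave 5 to 12 members without overlap, since fewer values overlap less often. It gave medians from -0.15 (without Tg 6) to 0.0902 (without Tg 7) for type I-induced genes and from -0.24 to 0.44 for gamma-induced genes. The means of the gamma-induced genes by mouse, recomputed in ways chosen after seeing the data, stayed at 0.65 to 0.70 for Tg 6 and -0.50 to -0.45 for Tg 7 under quantile normalization, median centring and 64 added before the log. The type I-induced mean of Tg 5 was -0.14 under median centring, against 0.02 as deposited.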
